A study of Mus musculus with 10 samples.

Results

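The mitochondrial ribosome is the ribosome inside mitochondria, and its protein subunits are encoded by nuclear genes whose symbols start with Mrpl or Mrps. These genes were taken from a mouse bone marrow RNA-seq table by symbol alone: Mrpl or Mrps, a number and at most 1 letter from a to c, leaving out pseudogenes. The rule found 78 genes among 55367 in the table, and all 78 passed the filter on low counts that left 15126 genes for testing. By their known place in the ribosome, 51 belong to the large subunit and 26 to the small subunit. The remaining gene, Mrps36, carries a ribosomal name, but its protein is known as an adaptor of the α-ketoglutarate dehydrogenase complex.

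The mitochondrial ribosome is built from ribosomal RNAs transcribed from mitochondrial DNA and from proteins made in the cytosol and imported. It translates the mRNAs of the mitochondrial genome, all of which encode subunits of the respiratory chain and ATP synthase. Its small subunit decodes the mRNA and its large subunit forms peptide bonds. Some of its proteins belong to families shared with bacterial ribosomes, and others are found only in mitochondria. Inherited loss of several of them, such as MRPL3, MRPL44, MRPS16, MRPS22 and MRPS34, causes disorders of oxidative phosphorylation in humans. In marrow, red cell precursors rely on mitochondria for haem synthesis before they lose them.

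The libraries came from bone marrow cells, labelled BMMC, of mice that drank regular water (5 libraries) or water with 1% α-ketoglutarate (α-KG, 5 libraries). Cells make α-KG in the tricarboxylic acid cycle. The study as a whole is about myeloproliferative neoplasms, a group of blood cancers. The sources used here do not give the animals' genotype, sex or age, or how long they drank α-KG. Whether 1 mouse gave 1 library is not stated, so a p-value reflects variation between these libraries, which may be technical. Libraries are called water 1 to 5 and α-KG 1 to 5, and equal numbers do not mark pairs.

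Library totals ran from 14291364 to 22490118 counts. Markers of neutrophils, granulocyte precursors, red cell precursors, B cells, monocytes and megakaryocytes were all detected, so the samples were mixed marrow. The libraries differed in composition between the groups. All 12 monocyte markers had log2 fold changes above 0 (median 1.11, 9 called higher), and their summed level was 328.1 to 442.3 CPM (counts per 1000000 after scaling) in water and 434.6 to 783.7 in α-KG. All 20 cell cycle genes had log2 fold changes below 0 (median -0.70, 0 called), with sums of 3740 to 5305 CPM in water and 1288 to 3986 in α-KG. All 10 markers of T and NK cells were above 0 too (median 0.77, 2 called higher). Of 11 red cell precursor markers, 8 were below 0 (median -0.73, 0 called), with sums of 14640 to 33730 CPM in water and 13630 to 46390 in α-KG. Of 8 B cell markers, 7 were above 0 (median 0.45, 0 called). The share of counts from Rn7s1 and Rn7s2, copies of the signal recognition particle RNA, was 7.56% to 24.2% in water and 24.0% to 31.0% in α-KG, overlapping only between water 5 and α-KG 1. The part of these shifts in the results below was not tested beyond the covariate fits that are given. Those fits hold the monocyte mean, the cell cycle mean or the Rn7s share. Each of these differed between the groups, so such a fit cannot tell it apart from α-KG. With the monocyte mean held, 131 of 15126 genes had an unadjusted edgeR p under 0.05, against 4205 without a covariate. In mixed marrow cells, fewer cells of a type and less RNA per cell cannot be told apart. Among the α-KG libraries, α-KG 2 had the lowest monocyte sum and the highest cell cycle sum. Among the water libraries, water 3 had the highest monocyte sum and the lowest cell cycle sum.

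None of the 78 mitochondrial ribosomal protein genes passed the test between α-KG and water (edgeR, adjusted p under 0.05 over all genes tested). Over all 15126 genes, 413 passed, which is 2.73%: 361 higher (2.39%) and 52 lower (0.344%). Both directions were about equally common among the members, with 40 log2 fold changes above 0 and 38 below, and 51.7% of all genes above 0. Their median log2 fold change was 0.01, beside 0.02 for all genes tested. The smallest adjusted p was 0.0575, for Mrpl20.

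The members also lay closer together than genes in general. Their middle values ran from -0.17 to 0.15 (quartiles of the log2 fold change), and the quartiles of all genes were -0.27 and 0.33. The SD of the log2 fold changes was 0.254 among members and 0.490 among all genes tested. This was not particular to the members. The SD was 0.226 among 16 mitochondrial translation factors and 0.268 among 26 assembly and rRNA modification factors. It was larger among 10 genes of mitochondrial transcription and DNA maintenance (0.427) and 9 regulators (0.361). Members were also measured more precisely, with a median SE of 0.175 beside 0.208 for all genes. An unadjusted p under 0.05 was found for 9 of 78 members (11.5%) and for 4205 of all genes (27.8%). Of those 9, Mrpl33, Mrpl19, Mrps6 and Mrps23 were higher in α-KG, and Mrps36, Mrpl20, Mrpl49, Mrpl13 and Mrpl51 lower. Mrpl51 was named after its value was seen.

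**Figure D1:**
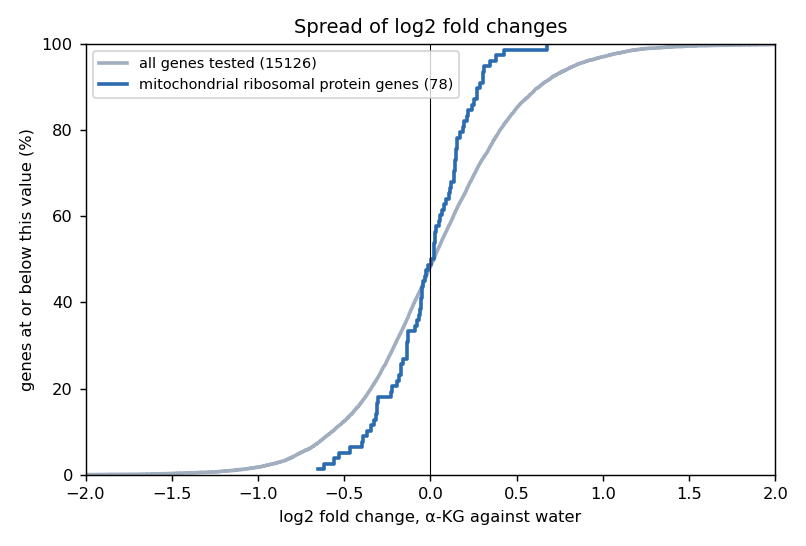
Cumulative share of genes (y axis, %) at or below each log2 fold change of α-KG against water (x axis), for all 15126 genes tested and for the 78 mitochondrial ribosomal protein genes; values beyond -2 and 2 are not drawn. Both curves cross 0 near the middle, and the members' curve is steeper, with quartiles of -0.17 and 0.15 against -0.27 and 0.33.

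The intervals show what sizes of change the data leave possible. The 95% interval of the log2 fold change lay inside a 2-fold change either way for 74 of 78 members (94.9%), as it did for 66.1% of all genes. It lay inside a 1.5-fold change for 44 members (56.4%), beside 30% of all genes (4538 of 15126). The 4 members whose interval reached past 2-fold were Mrps6, Mrpl53, Mrpl57 and Mrps36, with Mrpl57 chosen by its interval. A value that missed the threshold does not show equal levels in both groups.

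**Figure D2:**
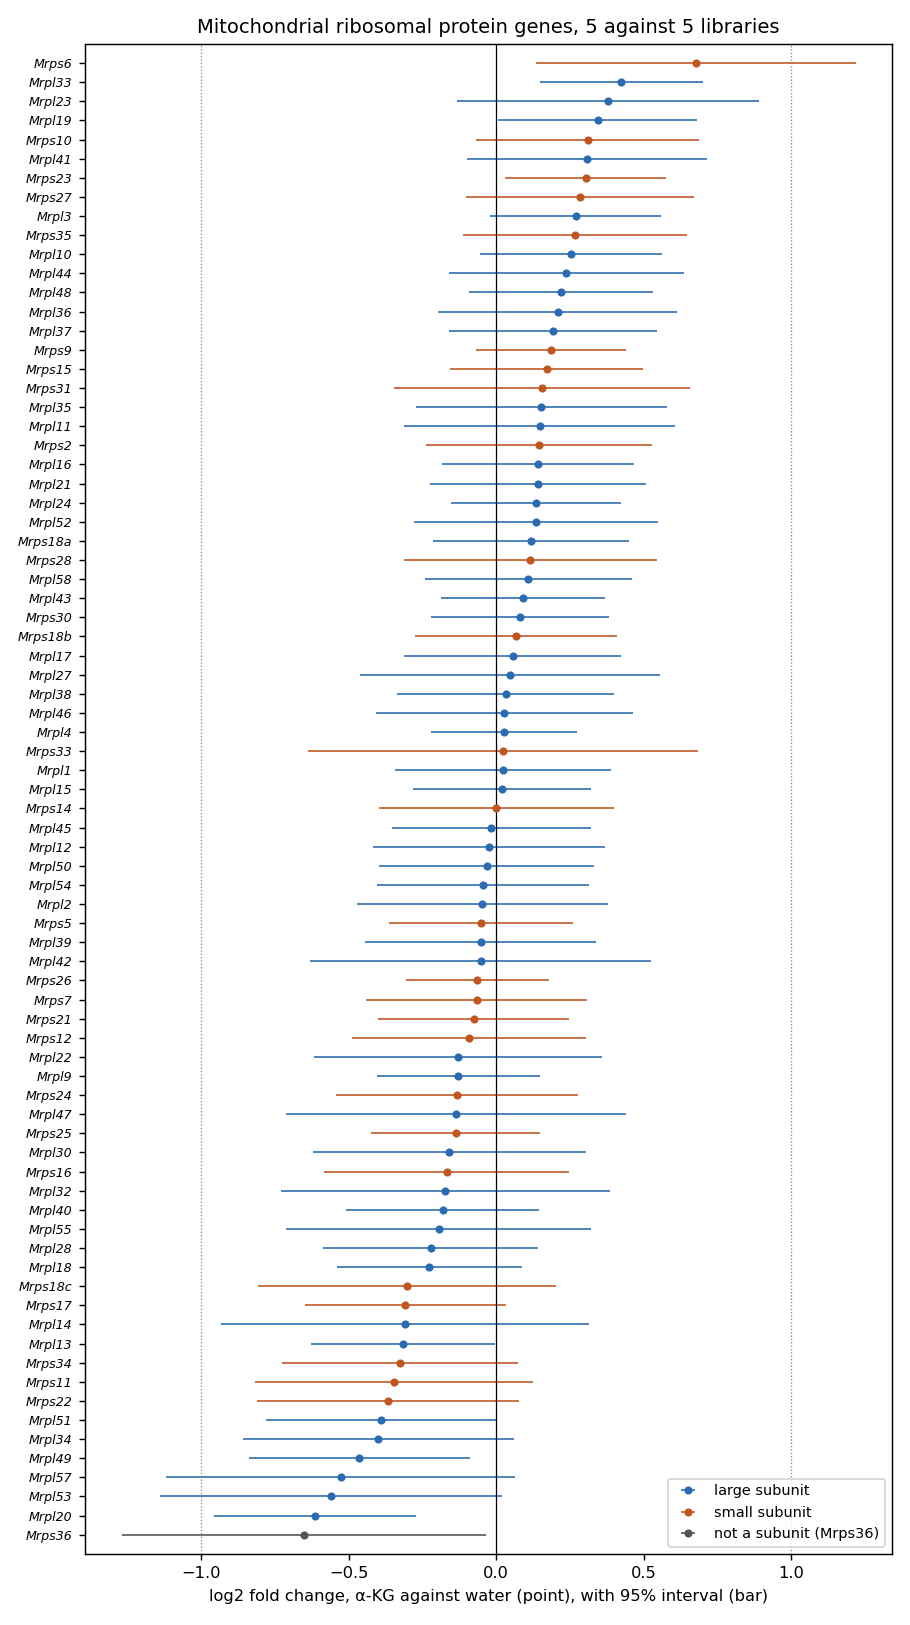
Log2 fold change of each of the 78 genes (points) with its 95% interval (bars), from edgeR, 5 against 5 libraries, coloured by ribosomal subunit; dotted lines mark 2-fold changes. The points run from -0.65 for Mrps36 to 0.68 for Mrps6, and the 2 subunits overlap over most of the range.

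The sum over all 78 genes was 546, 454, 438, 475 and 589 CPM in water 1 to 5, and 456, 516, 474, 520 and 484 CPM in α-KG 1 to 5 (519.6 for α-KG 4 before rounding). All α-KG sums lay within the range of the water sums. The mean sums were 500.3 ± 64.4 CPM in water and 489.9 ± 27.5 CPM in α-KG (SD over 5 libraries). These sums depend on the scaling, with factors from 0.737 in α-KG 4 to 1.44 in water 1. As an unscaled share of counts, members made up 0.0419% to 0.0785% in water and 0.0383% to 0.0618% in α-KG. That share was below every water library in α-KG 3, 4 and 5. Water 5 held the highest value of 27 of the 78 genes, α-KG 4 of 15 and water 1 of 13. The lowest values were spread more widely, with 19 in water 2, 12 each in water 4 and α-KG 1, and 10 in water 3. Within a group, the coefficient of variation of a member had a median of 19.6% in water and 16.9% in α-KG.

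The RNAs that the mitochondrial ribosome translates had larger differences that varied far more between libraries. Each of the 13 mitochondrially encoded mRNAs lay above 0 in log2 fold change (median 0.84), and 0 of 13 passed the test. Their sum was 7019, 12496, 17067, 15486 and 26614 CPM in water 1 to 5, and 14433, 22033, 31194, 50944 and 15628 CPM in α-KG 1 to 5. The groups overlapped, and α-KG 4 was far above the others. Without α-KG 4 the median was 0.46. It was -0.26 when the fit held the monocyte mean, -0.36 when it held the Rn7s share and 1.05 when it held the cell cycle mean. mt-Nd3, a complex I subunit, had the smallest p of the list (log2 fold change 1.02 ± 0.41 SE, adjusted p = 0.140). mt-Co1, the catalytic subunit of cytochrome c oxidase, averaged 6798 ± 3147 CPM in water and 11298 ± 6058 CPM in α-KG (SD over 5 libraries), a log2 fold change of 0.73 ± 0.46 (SE; adjusted p = 0.305). The ribosomal RNAs of the same organelle, mt-Rnr1 and mt-Rnr2, were at 0.39 ± 0.61 and 0.34 ± 0.61 (SE; adjusted p = 0.686 and 0.733). These libraries were depleted of ribosomal RNA, so their levels depend on the depletion as well. The mitochondrial rRNAs and mt-Co1 were added after the values were seen.

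**Figure D3:**
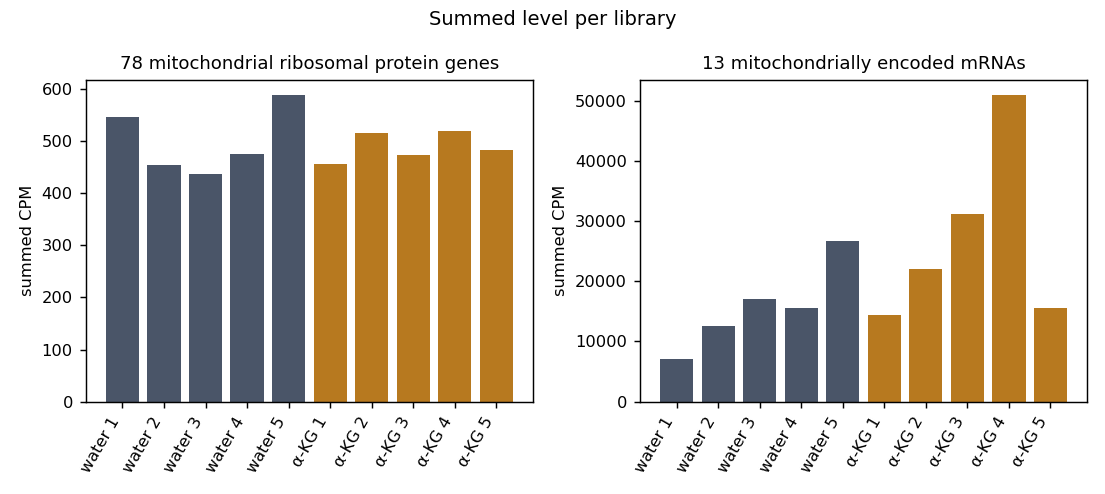
Summed level in CPM (y axes, from 0) of the 78 mitochondrial ribosomal protein genes (left) and the 13 mitochondrially encoded mRNAs (right) in each library (x axes), 5 water and 5 α-KG. The left bars stay between 438 and 589 CPM, and the right bars run from 7019 CPM in water 1 to 50944 in α-KG 4.

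Among the large-subunit genes, 27 of 51 had log2 fold changes above 0, the median was 0.02 and 0 passed the test. Mrpl20 encodes a member of the bacterial L20 family, RNA-binding proteins of early large-subunit assembly (chromosome 4, 155802878 to 155809975, build GRCm38). It stood at 13.3, 12.8, 8.31, 11.8 and 11.9 CPM in water 1 to 5 and at 6.92, 9.13, 8.03, 5.89 and 7.77 CPM in α-KG 1 to 5. Only water 3 reached into the α-KG range, lying below α-KG 2. The log2 fold change was -0.62 ± 0.16 (SE; 95% interval -0.96 to -0.27, adjusted p = 0.0575). It passed with DESeq2 (-0.64, adjusted p = 0.0128), without water 3 (-0.71, 0.0284), without α-KG 2 (-0.69, 0.0194) and without the filter on low counts (-0.65, 0.0402). It stood at 0.03 once the monocyte mean, -0.38 once the cell cycle mean, or -0.54 once the Rn7s share was a covariate.

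Mrpl33 encodes a small protein of the bacterial L33 family (chromosome 5, 31596935 to 31664384). Its levels were 14.5, 14.99, 15.4, 12.9 and 12.2 CPM in water 1 to 5 and 17.6, 16.05, 23.0, 16.9 and 20.5 CPM in α-KG 1 to 5. Every α-KG library was above every water library. The log2 fold change was 0.42 ± 0.13 (SE; 95% interval 0.15 to 0.70, adjusted p = 0.0770), and it passed only without α-KG 2 (0.48, adjusted p = 0.0305) among the alternatives run. It was 0.26 once the cell cycle mean, 0.19 once the monocyte mean, or 0.45 once the Rn7s share was a covariate. An exon of the gene model Gm43809 overlaps Mrpl33 on the same strand.

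Mrpl3 encodes a core protein of the L3 family (chromosome 9, 105053239 to 105079888). Its α-KG libraries lay within a narrow band, at 8.83, 8.94, 8.80, 9.60 and 9.14 CPM, and the water libraries at 8.16, 5.86, 6.47, 8.58 and 8.51 CPM. The groups were apart, but by only the step from 8.58 to 8.80 CPM. The log2 fold change was 0.27 ± 0.13 (SE; 95% interval -0.02 to 0.56, adjusted p = 0.206). Mrpl33 and Mrpl3 were the 2 of 78 members (2.56%) whose groups did not overlap, and 855 of all genes (5.65%) had groups apart. Gm38077 and Gm47106 overlap exons of Mrpl3 on the same and the opposite strand.

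**Figure D4:**
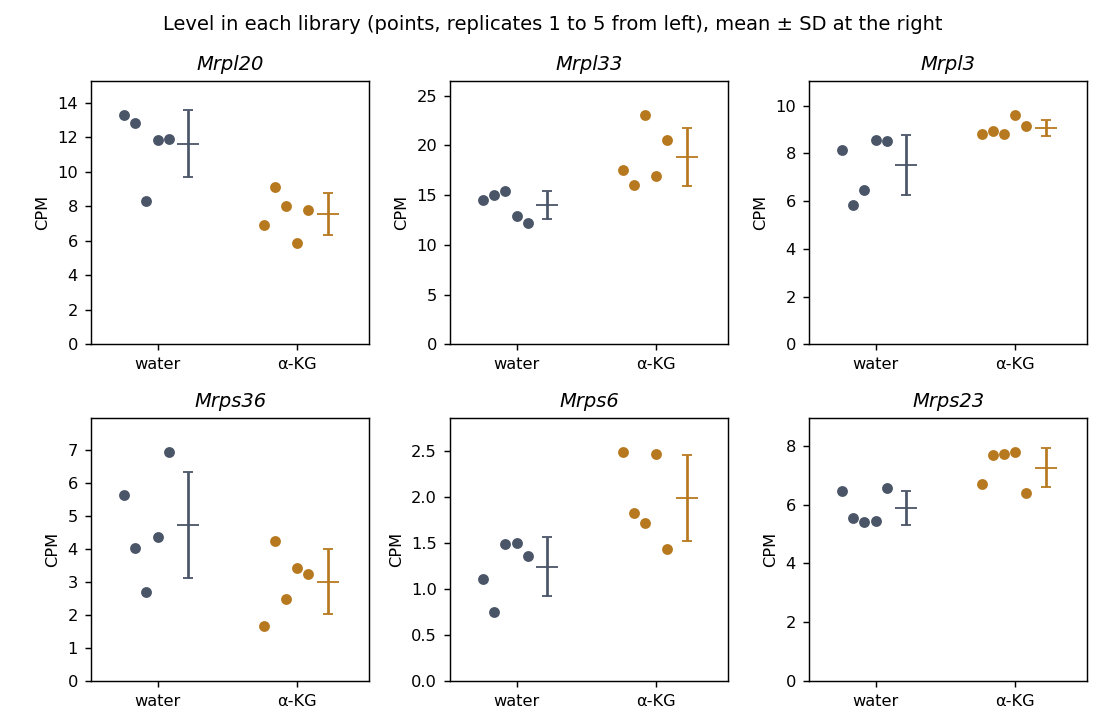
Level in CPM (y axes, from 0) of 6 mitochondrial ribosomal protein genes in each water and α-KG library (points, replicates 1 to 5 from the left), with the mean and SD of the 5 libraries at the right of each group. Mrpl33 and Mrpl3 have no overlap between groups, and in Mrpl20 only water 3, at 8.31 CPM, falls among the α-KG libraries.

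The upstream promoter sequences of these genes are shown because they are the member with the smallest p and the pair whose groups did not overlap. Each is the 250 bases before the RefSeq start on GRCm38.p6, written 5′ to 3′ on the gene's strand (plus for all of them), with capitals for exact matches to the motifs named next.
Mrpl20, chr4:155802628-155802877: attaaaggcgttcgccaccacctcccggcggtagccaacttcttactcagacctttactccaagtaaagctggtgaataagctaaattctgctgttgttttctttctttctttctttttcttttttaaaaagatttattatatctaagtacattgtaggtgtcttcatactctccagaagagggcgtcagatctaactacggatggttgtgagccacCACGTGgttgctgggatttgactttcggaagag
Mrpl33, chr5:31613701-31613950: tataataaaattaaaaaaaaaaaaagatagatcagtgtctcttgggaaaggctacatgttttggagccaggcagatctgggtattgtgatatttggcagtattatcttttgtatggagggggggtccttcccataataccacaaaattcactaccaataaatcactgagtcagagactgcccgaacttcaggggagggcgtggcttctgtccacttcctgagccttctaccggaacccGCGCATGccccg
Mrpl3, chr9:105053018-105053267: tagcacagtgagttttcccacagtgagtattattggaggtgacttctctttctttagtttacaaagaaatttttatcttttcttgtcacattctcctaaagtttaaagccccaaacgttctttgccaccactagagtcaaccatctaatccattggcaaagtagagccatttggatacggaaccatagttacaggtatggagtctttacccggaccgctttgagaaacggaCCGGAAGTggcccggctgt
Mrpl20 holds an E-box that starts 33 bases before its start, and Mrpl3 holds an ETS match that starts 19 bases before. Mrpl33 holds a match to the NRF1 letters that starts 12 bases before its start. The RefSeq start used for Mrpl33 lies inside its GENCODE interval (31596935 to 31664384), downstream of the outer start used for its position. The window of Mrpl3 ends at 105053267, past its GENCODE start at 105053239, and its ETS match lies inside that GENCODE interval.

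Motifs were searched on both strands in the RefSeq windows from 250 bases before to 50 after each start, which were found for 69 of 78 members. The letters GCGCATG, from the motif of NRF1, a regulator of many nuclear genes for mitochondria, matched in 11.6% of these members, in 7.72% of tested genes with a window and in 4.41% of all genes with one. The ETS letters CCGGAAGT, which GABPA binds, matched in 17.4%, 9.0% and 4.31%. The YY1 letters AAGATGG matched in 18.8%, 8.41% and 7.28%, the E-box CACGTG in 7.25%, 11.7% and 8.09%, and the TATA letters TATAAA in 7.25%, 9.12% and 15.7%. A gene counts once if any of its windows matches, and the NRF1 and YY1 letters are shorter than in a first search and were chosen after it. These are matches of letters, with no binding measured.

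Other large-subunit genes with the smallest p values lay on both sides of 0. Mrpl49, found only in mitochondria, was at 12.52, 9.28, 6.36, 9.80 and 11.5 CPM in water 1 to 5 and at 6.18 to 7.73 CPM in α-KG. Water 3 was inside the α-KG range and the other water libraries were above it. Its log2 fold change was -0.46 ± 0.17 (SE; adjusted p = 0.116), and -0.58 without water 3 (adjusted p = 0.0427). It was -0.18 once the cell cycle mean, -0.13 once the monocyte mean, or -0.39 once the Rn7s share was a covariate. Syvn1 overlaps an exon of Mrpl49 on the opposite strand. Mrpl13, of the L13 family, was at -0.32 ± 0.14 (adjusted p = 0.176). It was 0.07 once the monocyte mean, -0.06 once the cell cycle mean, or -0.39 once the Rn7s share was a covariate. An exon of Mtbp, on the opposite strand, overlaps it. Whether reads were counted by strand is not known here. Mrpl19, of the L19 family at the subunit interface, was at 0.35 ± 0.16 (adjusted p = 0.173), with 4.07 to 5.65 CPM in water and 4.94 to 7.73 in α-KG.

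Mrpl53 and Mrpl23 lay at the edges of the large-subunit values. Mrpl53, a mitochondria-specific protein, was at 3.06 to 4.69 CPM in water. In α-KG it split into 1.87, 2.01 and 1.71 CPM in α-KG 1, 3 and 4, and 4.25 and 3.81 CPM in α-KG 2 and 5. Its log2 fold change was -0.56 ± 0.27 (adjusted p = 0.191). It was 0.12 once the cell cycle mean, 0.37 once the monocyte mean, or -0.54 once the Rn7s share was a covariate. Mrpl23, of the L23 family at the peptide exit tunnel, was at 0.38 ± 0.24 (adjusted p = 0.299). It was -0.08 once the Rn7s share, 0.56 once the cell cycle mean, or 0.72 once the monocyte mean was a covariate. The table also lists Mrpl23-ps1, with 46 to 113 counts in water and 28 to 86 in α-KG, where Mrpl23 itself had 14 to 51 over all libraries. Reads could be split between the gene and this pseudogene, so its level is uncertain.

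Further large-subunit genes were described for the known roles of their proteins. Mrpl12 and Mrpl11 belong to the stalk that recruits translation factors, and stood at -0.02 ± 0.18 and 0.15 ± 0.21 (SE; adjusted p = 0.942 and 0.659). Mrpl58, a peptidyl-tRNA hydrolase that rescues stalled ribosomes, was at 0.11 ± 0.16 (adjusted p = 0.675). Mrpl44, which is related to RNase III, was at 0.24 ± 0.18 (adjusted p = 0.401). Mrps30, a large-subunit protein in spite of its name, was at 12.02 ± 1.99 CPM in water and 12.7 ± 1.51 CPM in α-KG (SD over 5 libraries), with a log2 fold change of 0.08 ± 0.14 (SE; adjusted p = 0.718). For Mrpl12 the sign changed with upper-quartile scaling, where it was 0.04.

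Among the small-subunit genes, 13 of 26 were above 0, the median was -0.03 and 0 passed. Mrps6, of the bacterial S6 family, had the highest log2 fold change of all members and the lowest level in water (chromosome 16, 92058270 to 92112227). It was at 1.11, 0.745, 1.49, 1.5 and 1.36 CPM in water 1 to 5 and at 2.49, 1.83, 1.71, 2.47 and 1.44 CPM in α-KG 1 to 5. Only α-KG 5 lay within the water range. The log2 fold change was 0.68 ± 0.25 (SE; 95% interval 0.13 to 1.22, adjusted p = 0.116). It was 0.37 once the monocyte mean, 0.46 once the cell cycle mean, or 0.63 once the Rn7s share was a covariate. Counts were low, from 15 to 64 per library, and Slc5a3, a transporter gene, shares exon sequence with Mrps6 on the same strand.

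Mrps23, found only in mitochondria, had the smallest standard error of the small-subunit genes named here (chromosome 11, 88204388 to 88211507). It was at 6.46, 5.56, 5.40, 5.44 and 6.58 CPM in water 1 to 5 and at 6.69, 7.70, 7.73, 7.79 and 6.40 CPM in α-KG 1 to 5. α-KG 5 was below water 1 and water 5, and the other α-KG libraries were above all water libraries. The log2 fold change was 0.30 ± 0.13 (SE; 95% interval 0.03 to 0.58, adjusted p = 0.147), and it stayed above 0 in all 20 alternatives, from 0.26 to 0.45.

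Mrps17, Mrps22 and Mrps10 completed the small-subunit genes with the smallest p. Mrps17 was at -0.31 ± 0.16, Mrps22 at -0.37 ± 0.21 and Mrps10 at 0.31 ± 0.17 (SE; adjusted p = 0.217, 0.253 and 0.255). Their groups overlapped. Mrps34 was at -0.33 ± 0.18 and Mrps16 at -0.17 ± 0.19 (adjusted p = 0.260 and 0.573). Mrps12, whose bacterial relative lies at the decoding centre, was at 4.18 ± 1.02 CPM in water and 3.92 ± 0.463 CPM in α-KG (SD over 5 libraries), with a log2 fold change of -0.09 ± 0.18 (SE; adjusted p = 0.761).

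The 3 Mrps18 genes are paralogues of bacterial S18 whose products occupy different places in the ribosome, that of Mrps18a in the large subunit. Mrps18a was at 4.59 to 6.65 CPM in water and 4.85 to 6.69 in α-KG, with a log2 fold change of 0.12 ± 0.15 (SE; 95% interval -0.21 to 0.45, adjusted p = 0.622). Mrps18b was at 4.82 to 7.48 and 5.47 to 7.41 CPM (0.07 ± 0.16; -0.27 to 0.41, adjusted p = 0.799). Mrps18c was at 2.27 to 4.24 and 1.79 to 3.53 CPM (-0.30 ± 0.23; -0.81 to 0.20, adjusted p = 0.401). All of their groups overlapped, and the difference between paralogues was not tested.

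Mrps36, the dehydrogenase adaptor with a ribosomal name, had the lowest log2 fold change of the 78 genes (chromosome 13, 100735955 to 100744659). It was at 5.63, 4.02, 2.70, 4.36 and 6.94 CPM in water 1 to 5 and at 1.67, 4.25, 2.48, 3.42 and 3.24 CPM in α-KG 1 to 5. Water 3 was below 3 of the α-KG libraries and α-KG 2 was above water 2 and water 3, so the groups overlapped. The log2 fold change was -0.65 ± 0.29 (SE; 95% interval -1.27 to -0.03, adjusted p = 0.162). It was 0.24 with the cell cycle mean as a covariate, 0.14 with that of the monocyte markers and -0.82 with the Rn7s share. The enzymes of the α-KG dehydrogenase complex were all tested and none passed: Dld was at -0.22 ± 0.13, Dlst at -0.16 ± 0.13 and Ogdh at -0.14 ± 0.14 (SE; adjusted p = 0.272, 0.398 and 0.523). Ogdh was added after its value was seen.

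The members were also described by evolutionary origin and by transcript length. The 46 genes of bacterial families had a median log2 fold change of 0.02 with 25 above 0, and the 31 mitochondria-specific genes a median of -0.02 with 15 above 0. Ordered by exon length in the GENCODE M21 annotation, the 26 shortest members had a median of -0.06 with 10 above 0, the next 26 one of 0.01 with 14 above 0, and the 26 longest one of 0.07 with 16 above 0. The differences between these groups of genes were not tested.

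Per kilobase of exon, Mrpl18, Mrps21 and Mrpl34 had the highest levels. Mrpl18 was at 11.5 ± 1.57 CPM per kilobase in water and 9.85 ± 1.74 in α-KG, Mrps21 at 10.6 ± 1.33 and 10.1 ± 1.68, and Mrpl34 at 10.3 ± 3.48 and 7.80 ± 0.911 (SD, n = 5). The order of these 3 was not distinguishable within their spread. Their log2 fold changes were -0.23 ± 0.14, -0.08 ± 0.15 and -0.40 ± 0.21 (SE; adjusted p = 0.309, 0.754 and 0.232). Mrps10, Mrpl47 and Mrpl23 were at the bottom, with means over all libraries of 0.455, 0.397 and 0.353 CPM per kilobase. Exons of all annotated transcripts were joined, so genes with long minor transcripts, such as Mrps10 with 8079 bases of exon, come out low. Mrpl47 was chosen by its level.

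Some members start close to another gene. For 33 of 78, a protein-coding gene on the opposite strand starts within 1000 bases. The share over all genes was not computed, so this is not shown to be a trait of the members. Whether such genes point away from each other was not checked. Of those partners, 29 were tested and are not members themselves; 0 passed, and their median log2 fold change was -0.09 with a range of -0.78 to 0.69. Mrpl46 and Mrps11 form such a pair with each other, with starts 412 bases apart and overlapping exons, and stood at 0.03 ± 0.20 and -0.35 ± 0.22 (SE; adjusted p = 0.938 and 0.305). Mrps18b starts 45 bases from Ppp1r10, the partner with the lowest adjusted p, and the genes were at 0.07 and -0.54 (adjusted p = 0.799 and 0.069). Mrpl51 starts 100 bases from the condensin gene Ncapd2, the partner with the lowest log2 fold change, at -0.39 and -0.78 (adjusted p = 0.179 and 0.0841). Mrpl37 starts 120 bases from Cyb5rl, the partner with the highest, at 0.19 and 0.69 (adjusted p for Cyb5rl 0.100). These pairs were chosen after their values were seen. Exons of 28 members overlap another gene on the opposite strand and those of 8 on the same strand, where reads could be assigned to either gene.

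Other genes linked to mitochondria were followed through lists of assembly factors, translation factors, mitochondrial DNA genes and regulators, and 0 of them passed. Of 5 ribosomal proteins with other names, 4 were below 0. Gadd45gip1, a large-subunit protein also known as a regulator of growth arrest proteins, was at 38.5, 37.8, 22.8, 38.3 and 29.5 CPM in water 1 to 5 and 11.0, 28.5, 15.8, 23.0 and 28.1 CPM in α-KG 1 to 5. Its groups overlapped, with water 3 the lowest water library and α-KG 1 the lowest of all (log2 fold change -0.65 ± 0.25 SE, adjusted p = 0.125). Aurkaip1, a small-subunit protein, was at -0.19 ± 0.11 (adjusted p = 0.273).

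Of 26 assembly and rRNA modification factors, 19 were above 0, with a median of 0.16. Ddx28, a helicase of large-subunit assembly, was at 3.05 to 3.802 CPM in water and 4.10 to 5.04 in α-KG, with the groups apart (0.38 ± 0.14 SE, adjusted p = 0.111). Mterf4, which guides rRNA methylation, was at -0.48 ± 0.19 (adjusted p = 0.140). The 16 translation factors had a median of 0.01, with 8 above 0. Mtfmt, which formylates the initiator methionyl-tRNA, was at 0.47 ± 0.18 (adjusted p = 0.131), and Lrpprc, which stabilises mitochondrial mRNAs, at -0.25 ± 0.14 (adjusted p = 0.257).

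Genes that copy or transcribe mitochondrial DNA had a median of 0.01 over 10 tested. Polg2, the accessory subunit of the mitochondrial DNA polymerase, was at 25.2, 14.2, 13.003, 11.8 and 10.3 CPM in water 1 to 5 and 7.60 to 9.62 CPM in α-KG. The groups did not overlap and water 1 stood far above the rest (-0.79 ± 0.22 SE, adjusted p = 0.0637). Tfb2m, a mitochondrial transcription factor, was at -0.36 ± 0.15 (adjusted p = 0.143). Of 9 regulators of nuclear genes for mitochondria, 6 were below 0, with a median of -0.14. Nrf1 was at 42.9 to 55.3 CPM in water and 28.8 to 46.5 in α-KG (-0.45 ± 0.15, adjusted p = 0.0943), and only α-KG 2 lay within the water range. Gabpb2, a partner of GABPA, was at -0.43 ± 0.16 (adjusted p = 0.111). DESeq2 called Polg2, Nrf1 and Gabpb2 lower (adjusted p = 0.0178, 0.0430 and 0.0419).

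The share of members called was set beside the share of all genes under 20 other settings. No gene at all was called in 7 of them, which therefore say nothing about the members. In 9 settings 0 members were called while 0.239% to 4.09% of all genes were, and in the remaining 4 at most 2 of 78 members were called. Leaving out α-KG 2 raised the calls over all genes to 2683 of 15384 (17.4%), and 2 members passed, Mrpl20 and Mrpl33. Without water 3, 632 genes passed (4.15%) and 2 members, Mrpl20 and Mrpl49. DESeq2, fitted without the edgeR filter on low counts, called 1654 of 32162 genes (5.14%). Its own default filter acted at the adjustment, and any gene without an adjusted p counted as not called. The filter-free edgeR fit called 582 (1.81%). Mrpl20 was the 1 member called in each.

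**Figure D5:**
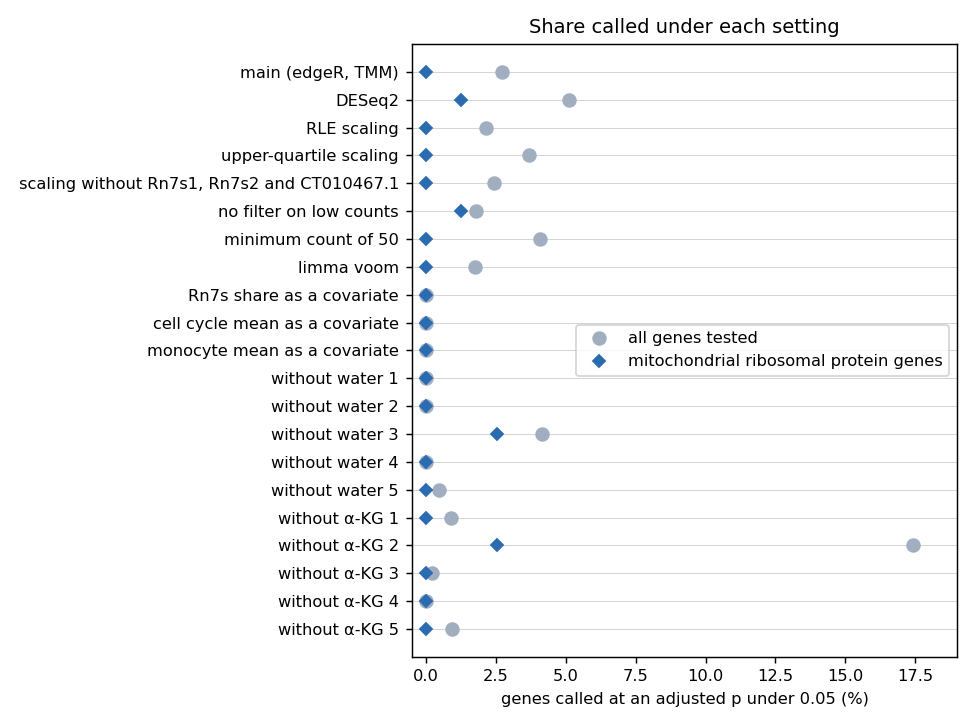
Share of genes called at an adjusted p under 0.05 (x axis, %) under each setting (rows), for all genes tested (circles) and the 78 mitochondrial ribosomal protein genes (diamonds; 71 with a minimum count of 50). Without α-KG 2, 17.4% of all genes were called and 2 of 78 members.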

How the data were processed

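The authors deposited expected counts per gene, not whole numbers for 10.3% of values and unscaled between libraries. Per the labels' protocols, RNA was column-purified with DNase treatment and ribosomal RNA was removed with RNase H. The submitters' processing notes name bcl2fastq, DRAGEN and GRCm38. The sources used here name no quantifier, annotation release or strand setting. All 10 libraries were used (totals 14291364 to 22490118, with 12 to 585 counts per member and library).

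Counts were rounded, filtered with filterByExpr (minimum count 10, minimum total 15), scaled by TMM and tested with edgeR 4.0.16 (quasi-likelihood F test, robust, two-sided, R 4.3.3), with Benjamini-Hochberg adjustment over all 15126 genes and a threshold of 0.05. Standard errors were obtained from the size of the log2 fold change and its F value, and 95% intervals use the fit's degrees of freedom. CPM use TMM-scaled library sizes. The fit was tested on simulated counts with a single dispersion for all genes and no difference in cell composition. That test does not cover libraries that differ in composition, as these do. Alternatives were DESeq2 1.42.0, limma 3.58.1 voom, scalings, filters, covariates and each library left out.

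Members, lists and tests were chosen with earlier results of these data known. Named members were those with the 5 smallest p per subunit, the 3 highest and 3 lowest log2 fold changes, the 3 highest levels per exon length and 14 fixed genes. Of each other list, the 2 genes with the smallest p were named. Positions and exon lengths came from GENCODE M21 (GRCm38), and promoters from RefSeq.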

Additional observations from a re-analysis of the deposited data

Results flagged for a closer look

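Polg2 in water 1 was at 25.2 CPM, where the other water libraries were at 10.3 to 14.2 CPM, with a gap to the next library of 0.735 of the group's range, above Dixon's 95% critical value for 5 samples. It was the 1 such case among 92 groups of 5 libraries checked (46 genes in 2 groups), and chance gives about 1 in 20. None of the 28 named mitochondrial ribosomal protein genes had such a library.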

How the results depend on the processing

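No paired analysis was possible because water and α-KG titles have no number in common, nor any other label linking a library to one of the other group. Over all genes, 413 calls among 15126 became 1654 with DESeq2, fitted to 32162 genes without filterByExpr but with its own default filter at the adjustment. That changes the tool and the gene set together. The calls were 267 with limma voom, and 0 with the Rn7s share, the cell cycle mean or the monocyte mean as a covariate. With a library left out they ran from 0 to 2683 (0 if water 1, 2 or 4 or α-KG 4 was omitted, 72 if water 5 was, 139, 37 and 149 if α-KG 1, 3 and 5 were, each in turn, 632 if water 3 was and 2683 if α-KG 2 was). The cause was not tested. Members called were 1 with DESeq2 and 1 without the filter, and 0 to 2 with a library left out. Genes of the other mitochondrial lists were followed under settings chosen after seeing the data. Those called were 3 with DESeq2 (Polg2, Nrf1 and Gabpb2), 1 without the filter (Polg2), and 0 to 4 with a library left out. Of these genes only Mtfmt, called without α-KG 2, is in the list of translation factors. The median log2 fold change of the members was 0.18 with the cell cycle mean as a covariate (all genes 0.06), 0.15 with the monocyte mean (all genes -0.0012) and between -0.05 and 0.06 with a library left out. Of the 78 members, 28 kept their sign wherever they were fitted among 20 alternatives, 24 above and 4 below 0. The alternatives include the cell cycle and monocyte covariate fits, which called 0 genes and moved the members' median upward. The split of 24 and 4 is therefore not a measure of direction, and the main fit had 40 members above and 38 below 0.

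Signs of uncalled values changed as follows, with the cause not tested. The covariates differed between the groups, so a fit that holds one cannot tell it apart from α-KG. With the Rn7s share as a covariate, Mrpl12, Mrpl23, Mrps16 and Mrps30 were at 0.076, -0.085, 0.10 and -0.044. With the cell cycle mean, Mrpl12, Mrpl18, Mrpl53, Mrps12, Mrps16, Mrps17, Mrps18c, Mrps21, Mrps34 and Mrps36 were at 0.12, 0.15, 0.12, 0.16, 0.011, 0.0052, 0.32, 0.20, 0.021 and 0.24. With the monocyte mean, Mrpl13, Mrpl18, Mrpl20, Mrpl53, Mrpl58, Mrps16, Mrps18c, Mrps21, Mrps34 and Mrps36 were at 0.073, 0.15, 0.035, 0.37, -0.017, 0.27, 0.012, 0.17, 0.11 and 0.14. Upper-quartile scaling put Mrpl12 at 0.036. With a library left out, Mrpl12 ran from -0.12 to 0.077, Mrps12 from -0.17 to 0.036, Mrps18b from -0.012 to 0.15 and Mrps30 from -0.0028 to 0.16. A member had 12 to 585 counts per library, and its 95% interval is the limit on what change could be seen.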
